A study of Homo sapiens with 6 samples.

Results

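The heat shock protein genes considered here are HSPA1A, HSPA1B, HSPA8, HSPH1, HSP90AA1, HSP90AB1, DNAJB1, BAG3, HSPD1 and HSPE1. Their members in the data are the RNA polymerase II (RNA pol II) regions that carry the symbol of 1 of these 10 genes, and there were 202 such regions among 271336 regions assigned to 16428 genes. Chromatin immunoprecipitation with sequencing was carried out in untreated HepG2 cells, a human liver tumour line, with an antibody to RPB1, the largest subunit of RNA pol II, and with an antibody to RPB1 phosphorylated at serine 2 of its C-terminal repeats (pSer2), a form found on elongating polymerase. SHP-1 WT cells were a CRISPR control line with the tyrosine phosphatase SHP-1 intact, and SHP-1 KO cells were a CRISPR line in which its gene, PTPN6, was targeted. The study's methods describe clonal lines but do not say whether the WT chromatin came from a single clone, and a difference between the lines cannot be told apart from a difference between clones. There was 1 library for each antibody and cell type, with input chromatin of the same cells as background, so no value below has a replicate error and no difference was tested.

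Heat shock proteins are chaperones that bind unfolded proteins and help them to fold or to be degraded. Heat shock factor 1 raises the transcription of several of these genes under stress by binding heat shock elements, which are arrays of short inverted repeats. HSP70 genes are the textbook case of genes that hold a paused RNA pol II just past the start before induction, while HSPA8 and HSP90AB1 are transcribed constantly in most cells.

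The 4 region lists held 46045 regions for RPB1 in WT, 41605 for RPB1 in SHP-1 KO, 102674 for pSer2 in WT and 81012 for pSer2 in SHP-1 KO, with 51, 43, 63 and 45 regions assigned to the heat shock protein genes in the same order. The value of a region is its fold enrichment over input at its summit, and the median over all regions of a list was 5.51, 5.62, 3.69 and 3.80. Of the liver markers examined by symbol, ALB, TTR, SERPINA1 and AFP held an RPB1 region in both cell types. By symbol APOA1 held an RPB1 region of 4.02-fold in WT and none in SHP-1 KO. Its strongest pSer2 region was 3.91-fold in WT and 9.46-fold in SHP-1 KO. Regions near APOA1 that were assigned to other genes are not given here. PTPN6 by symbol had a strongest RPB1 region of 24.0-fold in WT and 17.2-fold in SHP-1 KO, but no list held a region over the start of its main transcript, and the strongest RPB1 region near its end was 6.15-fold in WT and 11.4-fold in SHP-1 KO. None of these values says anything about the SHP-1 protein.

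The bases upstream of 6 members are shown because the strongest RPB1 regions described below lie directly over them and because they hold heat shock elements. The sequences were taken from RefSeq (GRCh38.p14), are written 5′ to 3′ on the strand of the gene and end 1 base before the start, and capitals mark matches to a heat shock element of 2 inverted units, GAANNTTC or TTCNNGAA, where N is any base. Each form reads the same on both strands, and neighbouring matches can share a unit. The intervals were chr6:31815383-31815542 for HSPA1A and chr6:31827578-31827737 for HSPA1B on the plus strand, and chr14:102087045-102087204 for HSP90AA1, chr19:14518398-14518557 for DNAJB1, chr11:123062137-123062386 for HSPA8 and chr2:197499841-197500090 for HSPD1 on the minus strand.
HSPA1A: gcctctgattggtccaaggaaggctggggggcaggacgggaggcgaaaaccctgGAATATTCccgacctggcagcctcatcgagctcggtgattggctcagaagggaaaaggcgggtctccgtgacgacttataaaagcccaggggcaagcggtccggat
HSPA1B: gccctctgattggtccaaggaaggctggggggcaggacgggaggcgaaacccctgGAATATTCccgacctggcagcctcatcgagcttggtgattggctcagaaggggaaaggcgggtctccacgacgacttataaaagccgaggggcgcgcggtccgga
HSP90AA1: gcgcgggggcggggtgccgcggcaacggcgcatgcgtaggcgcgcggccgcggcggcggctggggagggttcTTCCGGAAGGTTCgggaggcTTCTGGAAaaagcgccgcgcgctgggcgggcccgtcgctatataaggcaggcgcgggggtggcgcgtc
DNAJB1: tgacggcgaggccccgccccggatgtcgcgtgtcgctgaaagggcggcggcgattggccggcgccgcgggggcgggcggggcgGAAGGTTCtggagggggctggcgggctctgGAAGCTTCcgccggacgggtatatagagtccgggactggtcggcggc
HSPA8: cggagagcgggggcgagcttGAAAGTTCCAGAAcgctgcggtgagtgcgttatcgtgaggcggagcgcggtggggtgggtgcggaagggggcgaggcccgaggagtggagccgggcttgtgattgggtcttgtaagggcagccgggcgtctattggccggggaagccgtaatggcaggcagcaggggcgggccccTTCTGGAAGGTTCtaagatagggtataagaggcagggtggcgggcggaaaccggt
HSPD1: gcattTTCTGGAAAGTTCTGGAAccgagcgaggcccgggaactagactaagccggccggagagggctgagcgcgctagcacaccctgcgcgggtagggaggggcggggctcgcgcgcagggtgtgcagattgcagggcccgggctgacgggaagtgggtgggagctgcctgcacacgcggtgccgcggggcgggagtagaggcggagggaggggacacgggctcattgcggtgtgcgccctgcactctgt

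The 249 bases upstream of HSPA1A and HSPA1B were 94.4% identical. Both held a single 2-unit element, with its first base at -106 in HSPA1A and -105 in HSPA1B, and a TATAAA box at -30 and -29. HSP90AA1 held 3 matches, of which the pair starting at -88 and -83 share a unit and form a 3-unit element (GAANNTTCNNGAA or TTCNNGAANNTTC). HSPA8 held 3-unit elements at -230 and -55, and HSPD1 held overlapping 3-unit elements at -245 and -240 in the interval between its start and that of HSPE1. DNAJB1 held separate 2-unit elements at -77 and -47.

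A RefSeq promoter window of 300 bases at the main start was matched for 9 members, of which 6 held a 2-unit and 3 held a 3-unit element. Over all 35116 windows, searched on both strands, the shares were 13.5% and 0.49%, and TATAAA was in 11.5%. The windows of HSP90AB1, HSPE1 and BAG3 held neither form of the element, and the RefSeq start of HSPH1 lies too far from the main start to be counted. These are matches of letters, and binding of heat shock factors was not measured.

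HSP90AB1 held its elements downstream of the start. The stretch below, chr6:44247768-44247853 on the plus strand in intron 1, runs from +667 to +752 and holds a pair of 3-unit elements in capitals. It lay inside the RPB1 start region in WT (-1734 to +1470) and in SHP-1 KO (-1837 to +1052).
HSP90AB1 intron 1: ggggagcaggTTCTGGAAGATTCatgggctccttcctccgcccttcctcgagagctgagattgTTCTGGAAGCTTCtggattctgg

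RNA pol II lay over the start of every member in all 4 lists. The start was taken as that of the main transcript of each gene (MANE Select, GENCODE release 44, GRCh38), and a region that covered it was counted whichever gene it was assigned to. All 10 members had such a region for RPB1 in both lines, against 58.3% and 56.0% of 19016 protein-coding genes. All 10 also had a pSer2 region over the start in both cell types, against 25.9% and 23.6% of genes. The RPB1 start regions had a median of 59.8-fold in WT, between 33.3 and 133, compared with 29.6-fold over all genes with such a region. In SHP-1 KO the median was 52.5-fold, between 22.1 and 62.3, compared with 21.4-fold over all genes. HSPD1 and HSPE1 share a single RPB1 start region, which enters these medians for both genes. The members were chosen as known chaperone genes and not for these values, but earlier results of these data were known when they were chosen.

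Most summits of the start regions lay close to the start. The median distance of the RPB1 summit from the start was 44.5 bp downstream for WT and 32.5 bp for the KO line, and the pSer2 summit lay at 33 bp and 34.5 bp. The RPB1 summit lay within 250 bp of the start for 9 of 10 members in both cell types, and the exception was HSPE1, which shares the region of HSPD1. The pSer2 summit lay within 250 bp for 10 of 10 members in WT and for 9 of 10 in SHP-1 KO, where that of HSP90AB1 was 7469 bp downstream. Within its list, each RPB1 start region ranked above most regions, from percentile 89.9 (HSPH1) to 99.99 (HSP90AA1) for WT and from 87.5 (HSPH1) to 99.44 (HSP90AA1) for SHP-1 KO. Most regions of a list are weaker than a usual start region. Among the RPB1 start regions of all genes, HSPH1 was only at percentile 58.1 in WT and 52.1 in SHP-1 KO. HSP90AB1 was at 76.9 and 89.7, and HSP90AA1 at 99.9 and 97.9.

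**Figure D1:**
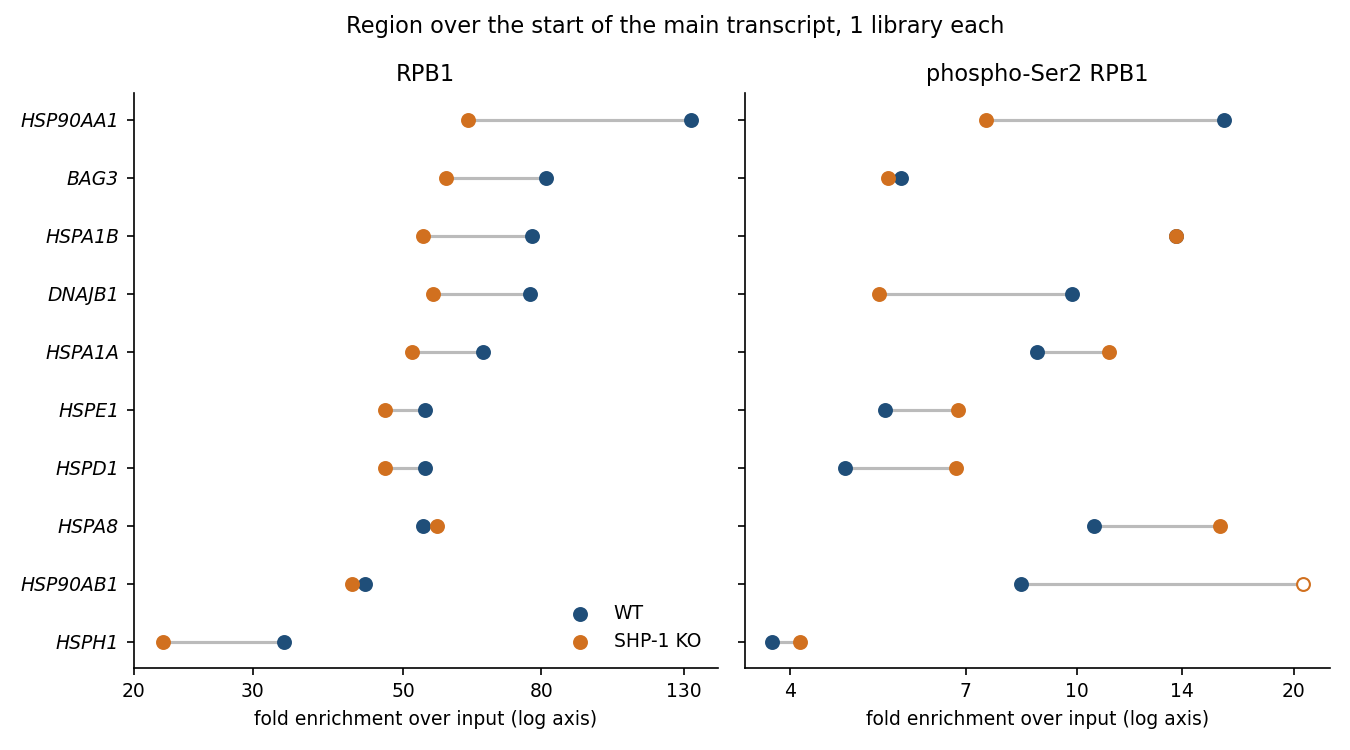
Fold enrichment over input (log axis) of the region that covers the start of the main transcript of each gene, for RPB1 (left) and phospho-Ser2 RPB1 (right), 1 library per point, WT in blue and SHP-1 KO in orange. HSP90AA1 stood apart in WT at 133-fold for RPB1, HSPD1 and HSPE1 share a single RPB1 region, and the open circle marks HSP90AB1, whose pSer2 region in SHP-1 KO has its summit beyond the end of the gene.

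HSPA1A and HSPA1B are neighbouring genes that encode nearly the same stress-inducible HSP70 protein. Their start regions ranked high among all regions of every list, at percentile 98.8 or above for RPB1 in WT and 97.1 or above for pSer2 in WT. The RPB1 region of HSPA1A was chr6:31814109-31815835 in WT with 65.7-fold and chr6:31814132-31815812 in SHP-1 KO with 51.5-fold. Its pSer2 region was 8.80-fold in WT and 11.1-fold in SHP-1 KO. HSPA1B had 77.5-fold RPB1 in WT (chr6:31826798-31828016) and 53.4-fold in SHP-1 KO (chr6:31827137-31828016), with 13.7-fold pSer2 in both cell types. The RPB1 start regions were thus lower in SHP-1 KO than in WT in both genes, with ratios of 0.784 and 0.689, and the pSer2 start region was higher in HSPA1A only, with ratios of 1.26 and 1.00. The median ratios over all genes with start regions in both lists were 0.716 for RPB1 and 0.974 for pSer2.

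No list held a region in the body of HSPA1A past +292 or of HSPA1B past +278, apart from a weak RPB1 region of 2.83-fold near the end of HSPA1B in WT. The genes share an identical stretch of 1715 bp from +208 in HSPA1A and from +207 in HSPA1B, and a further 149 bp after a single differing base. Together these stretches make up 77.7% of the main transcript of HSPA1A and 74.1% of that of HSPA1B. A read of 50 bases within these stretches matches both genes equally, and how such reads were treated is not given in the sources used here. The start regions ended where the shared sequence begins or shortly after, so the lists do not tell whether RNA pol II was present further into HSPA1A and HSPA1B.

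**Figure D2:**
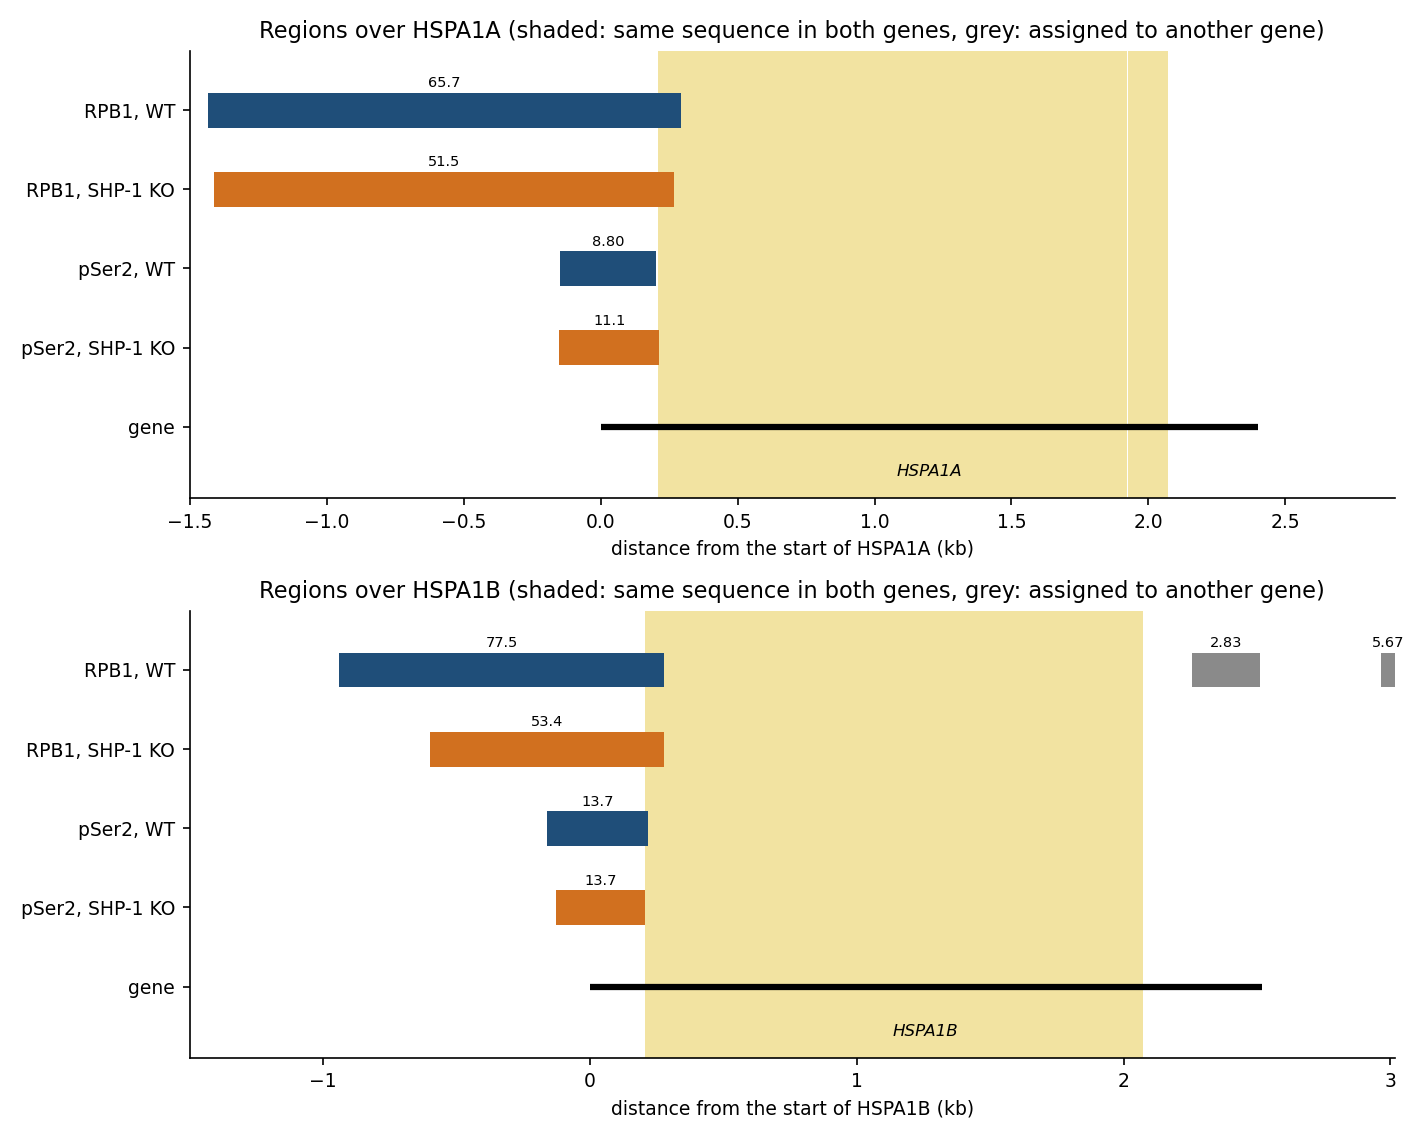
Regions over HSPA1A (top) and HSPA1B (bottom) in the 4 lists by distance from the start in kb, with fold enrichment printed above each region and the identical sequence shaded. The start regions in all 4 lists end at +292 or before, close to the left edge of the shaded stretch at +208 and +207.

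HSPA8, the constitutive HSP70 of the cytosol, held regions over most of its length. Its RPB1 start region was 53.6-fold in WT (chr11:123061264-123063546) and 56.1-fold in SHP-1 KO (chr11:123060921-123063188), and it was the only member with an RPB1 start value above WT, at a ratio of 1.05. The pSer2 start region was 10.5-fold and 562 bp long in WT, and 15.8-fold and 2623 bp long in SHP-1 KO, a ratio of 1.497. Regions of any assignment covered 66.1% of the gene for RPB1 in WT and 72.5% in SHP-1 KO, and 88.9% and 94.5% for pSer2. The region over its 3′ end was assigned to SNORD14E, a small nucleolar RNA gene, in every list. That region was 23.3-fold for RPB1 in WT and 16.5-fold in SHP-1 KO, and 10.4-fold and 6.70-fold for pSer2, so that in HSPA8 pSer2 was higher at the start and lower past the end in SHP-1 KO.

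HSPH1, an HSP110 protein that exchanges nucleotide on HSP70, had the weakest start regions of the members. RPB1 was 33.3-fold in WT (chr13:31160877-31162304) and 22.1-fold in SHP-1 KO (chr13:31161365-31162202), a ratio of 0.663. The pSer2 start region was 3.77-fold in WT and 4.13-fold in SHP-1 KO. The strongest pSer2 region of HSPH1 lay past its end, 474 bp downstream in WT with 4.94-fold and 693 bp downstream in SHP-1 KO with 5.55-fold. RPB1 regions covered 3.82% of this long gene in WT and 2.01% in SHP-1 KO.

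HSP90AA1, the inducible cytosolic HSP90, had the strongest RPB1 region of the members in WT and their lowest RPB1 ratio of SHP-1 KO to WT. Its start region was 133-fold in WT (chr14:102086127-102089015), rank 7 of all assigned genes, and 62.3-fold in SHP-1 KO (chr14:102086190-102088977), rank 235. The ratio was 0.467 for RPB1 and also 0.467 for pSer2, where the start region was 16.0-fold in WT and 7.47-fold in SHP-1 KO. At the 3′ end RPB1 did not keep this order. The RPB1 region over the end was 10.8-fold in WT and 16.9-fold in SHP-1 KO, whereas the next region downstream was 12.5-fold and 7.97-fold. The pSer2 region over the end was 15.0-fold in WT and 11.6-fold in SHP-1 KO. The strongest pSer2 region of the gene was hence at the start in WT, 33 bp downstream, and beyond the end in SHP-1 KO, 8039 bp downstream.

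HSP90AB1, the constitutive cytosolic HSP90, had RPB1 start regions of 43.9-fold in WT (chr6:44245367-44248571) and 42.1-fold in SHP-1 KO (chr6:44245264-44248153). By symbol it had 3 pSer2 regions in the WT list and 0 in that of SHP-1 KO, but the gene was not empty of pSer2. In SHP-1 KO a single region of 9646 bp, chr6:44246950-44256595, covered 100% of HSP90AB1 and was assigned to the microRNA gene MIR4647. Its summit of 20.6-fold lay 7469 bp downstream of the start and 687 bp past the end of HSP90AB1. In WT the regions of any assignment covered 95.1% of the gene, with 8.37-fold over the start, 4.14-fold over the body and 22.9-fold in a region over the end that was likewise assigned to MIR4647. Compared at the 3′ end, pSer2 was therefore 22.9-fold in WT and 20.6-fold in SHP-1 KO, and no pSer2 value of the start alone exists in SHP-1 KO. RPB1 regions covered 64.1% of the gene in WT and 91.9% in SHP-1 KO. The RPB1 region over the end in SHP-1 KO, 39.4-fold, had its summit 3400 bp past the end, next to the summit of a 48.2-fold region assigned to SLC35B2 in WT, 3402 bp past the end.

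**Figure D3:**
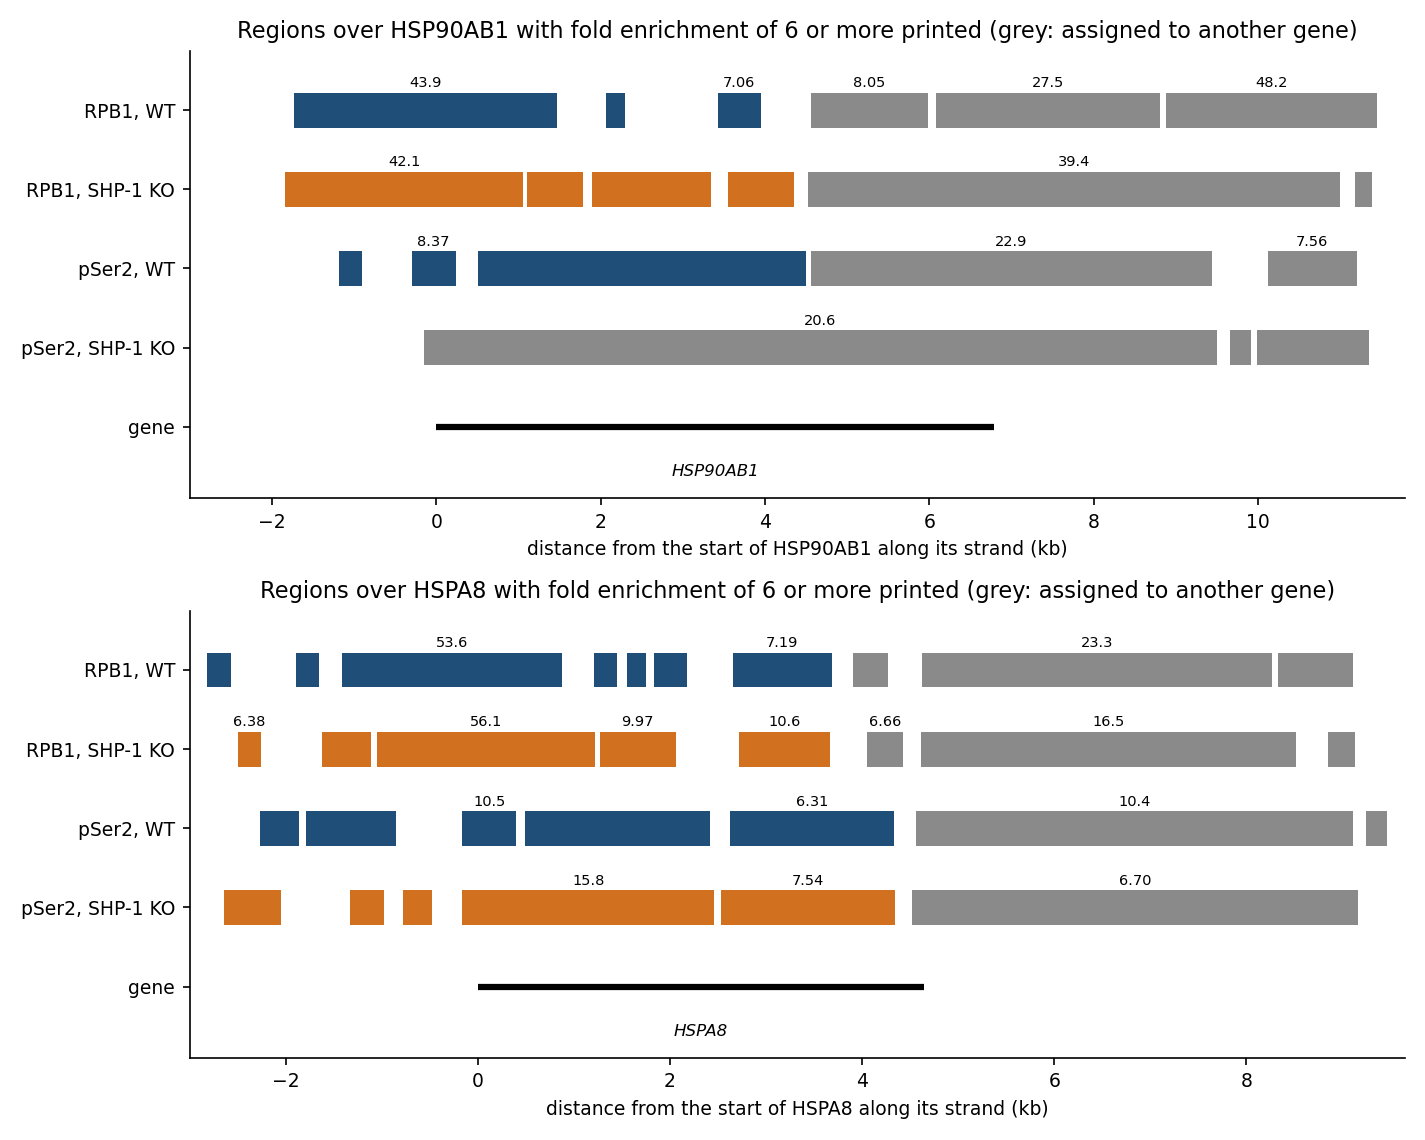
Regions over HSP90AB1 (top) and HSPA8 (bottom) in the 4 lists by distance from the start along the strand in kb, with fold enrichment of 6 or more printed. Regions assigned to another gene are grey, as for the 20.6-fold region that spans all of HSP90AB1 for pSer2 in SHP-1 KO and the regions over the 3′ end of HSPA8 in every list.

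The cochaperone genes DNAJB1 and BAG3 had strong RPB1 start regions. Their ratios of SHP-1 KO to WT were near the median of 0.716 over all genes with a start region in both lists. DNAJB1, an HSP40 that delivers substrates to HSP70, had 77.1-fold in WT (chr19:14517144-14519764) and 55.4-fold in SHP-1 KO (chr19:14517205-14519254), a ratio of 0.718. Its pSer2 start region was 9.84-fold in WT and 5.31-fold in SHP-1 KO, a ratio of 0.540. The region over the end of DNAJB1 was assigned to the neighbouring gene TECR in every list. It differed less between cell types, with 11.2-fold and 10.8-fold for RPB1 and 10.1-fold and 8.27-fold for pSer2 in WT and SHP-1 KO.

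BAG3, which links HSP70 to selective autophagy, had 81.2-fold RPB1 over its start in WT (chr10:119650713-119652483) and 57.8-fold in SHP-1 KO (chr10:119650607-119652004), a ratio of 0.713. Its RPB1 summit lay upstream of the start, at -172 in WT and -200 in SHP-1 KO, whereas its pSer2 summit lay downstream, at 47 and 59. The pSer2 start region was 5.69-fold in WT and 5.46-fold in SHP-1 KO. By symbol BAG3 had 7 pSer2 regions in the WT list and 2 in that of SHP-1 KO, and the 5 regions without an overlap in SHP-1 KO were between 3.05-fold and 5.33-fold and lay toward or past the end of the gene. Such regions were common, since only 52.2% of the 102674 pSer2 regions of WT overlapped any of the 81012 in SHP-1 KO.

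HSPD1 and HSPE1, which encode the chaperonin HSP60 of mitochondria and its partner HSP10, lie head to head and share a promoter. A single RPB1 region covered both starts, with 53.9-fold in WT (chr2:197497595-197501539) and 47.0-fold in SHP-1 KO (chr2:197497298-197500926). It was assigned to the read-through gene HSPE1-MOB4 in both lists, so that by symbol the strongest RPB1 region of HSPD1 was 12.2-fold in WT and 16.4-fold in SHP-1 KO and lay past its 3′ end. The pSer2 lists held separate regions over the starts. That of HSPD1 was 4.76-fold in WT and 6.78-fold in SHP-1 KO, and that of HSPE1 was 5.41-fold and 6.83-fold.

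HSPD1 had the strongest pSer2 region of the members by symbol, in a region past its 3′ end. It was 21.1-fold in WT (chr2:197483353-197486809) and 28.0-fold in SHP-1 KO (chr2:197483191-197486790), rank 162 and rank 23 of all assigned genes. The pSer2 regions over its body were also higher in SHP-1 KO. The region next to the end was 4.60-fold in WT and 9.44-fold in SHP-1 KO. The 7221 bp beyond it formed 1 region of 8.20-fold in SHP-1 KO, where WT had regions of 4.89-fold, 3.95-fold and 4.85-fold. RPB1 regions covered 59.2% of HSPD1 in WT and 85.1% in SHP-1 KO, and pSer2 regions 94.2% and 96.2%. At the 3′ end of HSPE1 the cell types were close, with 15.9-fold RPB1 in both and 12.1-fold and 11.4-fold pSer2 in WT and SHP-1 KO.

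**Figure D4:**
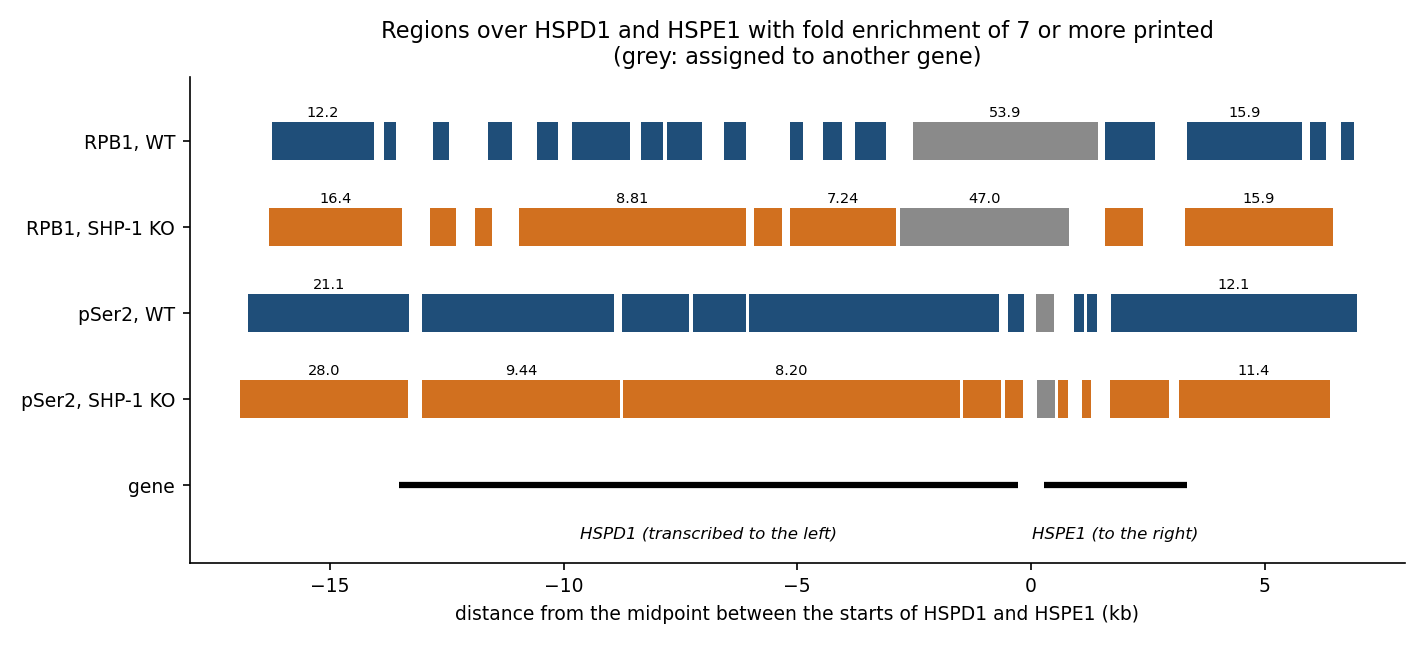
Regions over HSPD1 and HSPE1 in the 4 lists by distance in kb from the midpoint between their starts, with fold enrichment of 7 or more printed and regions assigned to another gene in grey. The pSer2 region past the 3′ end of HSPD1 was 21.1-fold in WT and 28.0-fold in SHP-1 KO, and the RPB1 region over both starts was 53.9-fold and 47.0-fold.

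The members differed in how pSer2 was distributed between start and end. For the members with a region near the end, the ratio of the strongest pSer2 region from 500 bp before to 3000 bp after the end to the pSer2 start region had a median of 1.03 in WT and 1.35 in SHP-1 KO over 9 members, compared with 1.39 and 1.37 over all genes with both regions. The SHP-1 KO value includes HSP90AB1, whose start and end lie in the same region and give a ratio of 1 by construction, and without HSP90AB1 the median over 8 members was 1.01 for WT and 1.45 for the KO line. The ratio ranged from 0.404 in HSPA1B to 4.44 in HSPD1 in WT, and from 0.295 to 4.13 for the same genes in SHP-1 KO. The higher median in SHP-1 KO does not describe the change within each gene. From WT to SHP-1 KO the ratio fell in HSPA1B, HSPD1, HSPA8 (0.982 to 0.477), HSPE1 (2.24 to 1.67) and BAG3 (0.982 to 0.706). It rose in HSP90AA1 (0.937 to 1.56), DNAJB1 (1.03 to 1.56) and HSPH1 (1.31 to 1.35). For RPB1 the same ratio had a median of 0.185 over 8 members in WT and 0.295 over 7 members in SHP-1 KO. Over all genes with both regions it was 0.306 and 0.379. HSPA1A had an RPB1 region near its end in WT only, at a ratio of 0.0528, so the medians of the members are not over the same genes. Near HSPA1B, HSP90AB1, HSPA8 and DNAJB1 the end values come at least in part from regions assigned to SNHG32, MIR4647, SLC35B2, SNORD14E and TECR, and which gene the polymerase there was transcribing was not tested.

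Between SHP-1 KO and WT, the RPB1 ratios of the heat shock protein genes were near those of all genes. By the strongest region of each symbol, 8 of 10 members were lower in SHP-1 KO. The same held for 82.1% of 12877 genes with a region in both lists. The median ratio was 0.751 over the members and 0.742 over these genes. The HSPD1 value of 1.35 compares regions with summits past its 3′ end, and over its start the ratio was 0.871. With regions of any symbol over the gene, 9 of 10 members were lower, as were 86.9% of 11649 genes. At a fold of 1.5 there were 2 members lower (HSP90AA1 and HSPH1) and 0 higher, where 36.1% of all genes were lower and 2.68% higher. Over the start regions the median ratio of the members was 0.751 as well, against 0.716 over 10506 genes. The same 2 members were past the fold, where 40.0% of genes were lower and 1.06% higher. HSPD1 and HSPE1 share a single RPB1 start region, so its ratio of 0.871 enters this median for both genes. Among genes with at least 20-fold enrichment in WT, as all members had, 42.7% were lower and the median was 0.700. The count also depends on the measure. With the mean fold enrichment over all regions of a symbol, weighted by length, 5 members were lower by the fold of 1.5 (HSPA1B, HSP90AA1, HSP90AB1, HSPH1 and BAG3), where 32.2% of all genes were, and at a fold of 2 by the strongest region HSP90AA1 alone was lower, where 10.3% of genes were. The counts thus lay on either side of the shares of all genes, and they give no result about the members as a group.

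For pSer2 the members lay on both sides of no change. By symbol the median ratio was 1.00 over the 9 members with regions in both lists, compared with 0.936 over 10870 genes. DNAJB1 was past the fold of 1.5 downward, at 0.578, and no member was past it upward, where 11.7% of genes were lower and 5.71% higher. The DNAJB1 value rests on regions at different places, since its strongest pSer2 region was over the start in WT and at -461 in SHP-1 KO. Over the start regions the median was 1.18 against 0.974 over 3696 genes, and 6 of 10 members were above 1, as were 46.7% of genes. Without HSP90AB1 the median was 1.09, with 5 of 9 above 1. HSP90AA1 and DNAJB1 were past the fold downward and HSP90AB1 upward, at 2.46, where 15.0% of genes were lower and 11.2% higher. The HSP90AB1 value compares a start region in WT with the region that spans the whole gene in SHP-1 KO and is not a difference at the start. No member was past the fold of 1.5 downward with the length-weighted mean (6.61% of genes) or with regions of any symbol over the gene (13.3%), nor past a fold of 2 (2.30%), whereas HSPA8 and HSPD1 were past the fold of 1.5 upward with the length-weighted mean, where 4.49% of genes were.

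**Figure D5:**
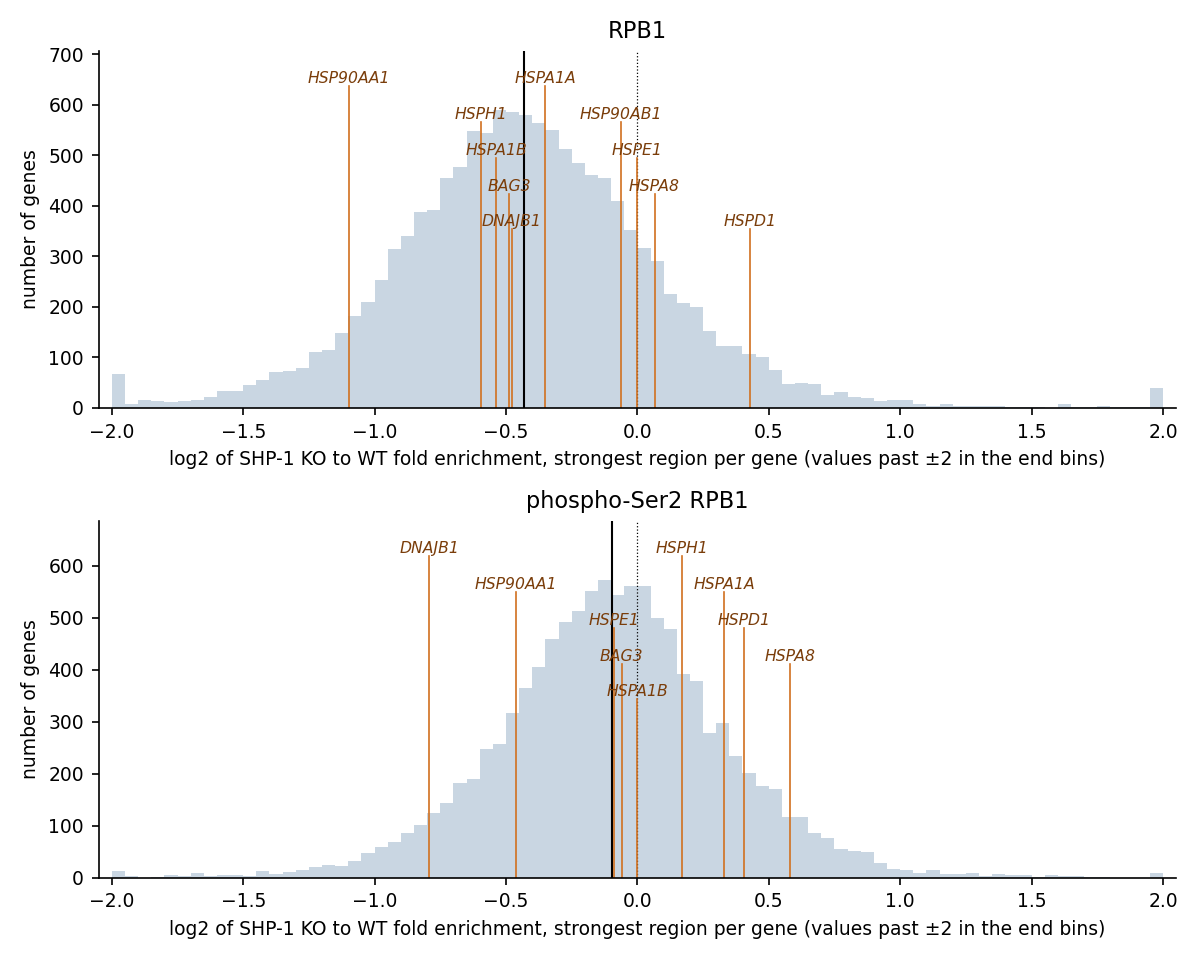
Histograms of the log2 ratio of SHP-1 KO to WT fold enrichment of the strongest region per assigned gene, for RPB1 (top) and phospho-Ser2 RPB1 (bottom), with the members as orange lines, the median of all genes as a black line and no change as a dotted line. For RPB1 most members lie around the median ratio of all genes, 0.742, with HSP90AA1 farthest below, and for pSer2 they lie on both sides of the median of 0.936. The RPB1 values of HSPD1 and HSPE1 come from regions with summits past their 3′ ends.

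Whether a region counted as found in both cell types depended on the overlap asked for. Of the RPB1 regions, 42 of 51 in WT (82.4%) overlapped a region in SHP-1 KO by at least 1 bp, and 36 of 43 in SHP-1 KO (83.7%) overlapped a region in WT, compared with 61.9% and 74.9% over all regions. For pSer2 these were 46 of 63 (73%) and 39 of 45 (86.7%), compared with 52.2% and 69.9%. With a reciprocal overlap of 50%, the shares of member regions found in the other cell type were 43.1% and 51.2% for RPB1 in WT and SHP-1 KO and 41.3% and 57.8% for pSer2, compared with 40.1%, 44.3%, 26.0% and 32.9% over all regions. By the annotation of the lists, promoter regions made up 47.1% of the member regions for RPB1 in WT (44.6% of all regions) and 55.8% in SHP-1 KO (47.4%). For pSer2 they made up 42.9% in WT (23.9%) and 55.6% in SHP-1 KO (25.1%). Intron regions made up 7.94% in WT (44.5%) and 0 in SHP-1 KO (43.2%), and distal intergenic regions 28.6% (9.02%) and 24.4% (8.34%). The promoter class includes starts of transcripts other than the main one, so it also holds regions deep inside a gene. In WT the pSer2 regions of HSPD1 with summits at +12181 and +8216 were among them. Ranked among genes by strongest region per symbol, the members had a median percentile of 93.3 for RPB1 and 86.9 for pSer2 in WT. In SHP-1 KO these were 96.2 and 90.9. By symbol, HSPD1 (29.8 in WT and 47.6 in SHP-1 KO) and HSPE1 (36.5 and 46.4) ranked below most genes for RPB1. HSPH1 did so for pSer2 in WT (39.5). The RPB1 region over the starts of HSPD1 and HSPE1 was assigned to HSPE1-MOB4 and did not enter their ranks. Among the RPB1 start regions of all genes, both were at percentile 87.9 in WT and 93.1 in SHP-1 KO. Whether rank bears on the overlap shares was not tested.

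A list of 60 other chaperone, cochaperone and heat shock factor genes showed a like picture for RPB1. An RPB1 region was assigned to 51 of them in WT and 48 in SHP-1 KO, and over the 47 with both the median ratio was 0.738, with 16 lower and 1 higher by a fold of 1.5. Over all genes the median was 0.742, with 36.1% lower and 2.68% higher, so these counts give no result about the list as a group. The lowest ratios were those of HSBP1, a negative regulator of heat shock factor 1 (37.6-fold and 18.7-fold), FKBP4, an HSP90 cochaperone (63.1-fold and 31.5-fold), and HSPB1, a small heat shock protein (35.0-fold and 17.7-fold). The gene past the fold upward was the HSP40 gene DNAJB4, at 20.8-fold in WT and 38.3-fold in SHP-1 KO. BAG1 and CDC37 followed by symbol with ratios of 1.45 and 1.36, but over the gene itself, whatever the assigned symbol, their ratios were 0.663 and 0.628.

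For pSer2, 46 of the 60 had a region in both lists, with a median ratio of 0.988, 7 lower and 4 higher. Over all genes the median was 0.936, with 11.7% lower and 5.71% higher. The lowest ratios were those of HSP90B1, HSPA9 and HSPA5. HSPA5, the main HSP70 of the endoplasmic reticulum, was 37.0-fold in WT and 19.0-fold in SHP-1 KO, and HSPA9, the mitochondrial HSP70, was 29.6-fold and 9.17-fold. HSP90B1, the endoplasmic reticulum HSP90, had the lowest ratio by symbol (17.3-fold and 3.16-fold), but over the gene itself it was 17.3-fold and 14.4-fold. The highest ratios were those of DNAJB4 (6.27-fold and 16.2-fold), CCT2, a subunit of the cytosolic chaperonin (7.25-fold and 12.3-fold), and DNAJB11, an endoplasmic reticulum HSP40 (9.77-fold and 16.2-fold). These values too are by symbol. Over the gene itself DNAJB11 was 4.04-fold and 16.2-fold, DNAJB4 4.36-fold and 16.2-fold, CCT2 6.57-fold and 12.3-fold, and HSPA9 29.6-fold and 11.8-fold.

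Some genes of the list had a region by symbol in 1 cell type only. For RPB1 these were HSPA2, DNAJC7, HSPB11 and ST13 in WT and HSPA1L in SHP-1 KO. For pSer2 they were HSPB11 and CRYAB in WT and DNAJA4, FKBP5 and HSPBP1 in SHP-1 KO. Absence by symbol can mean a region assigned to a neighbour, as for HSP90AB1. Over the gene and 1 kb upstream, whatever the symbol, several of these genes held RPB1 regions in WT and SHP-1 KO. They were 11.5-fold and 7.53-fold for HSPA2, 19.5-fold and 19.3-fold for DNAJC7, and 24.1-fold and 17.1-fold for ST13. For HSPA1L they were 65.7-fold and 51.5-fold, the values of the HSPA1A start region. By symbol, 12877 of 14746 genes with an RPB1 region had one in both lists, and 10870 of 13303 for pSer2.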

How the data were processed

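ChIP-seq was carried out by the authors with antibodies to RPB1 and pSer2-RPB1 in HepG2 control and knockout lines, 1 library each, with input DNA of both lines. The authors trimmed reads with Trimmomatic, aligned them to GRCh38/hg38 with BWA and called narrow peaks with MACS2 against input, with versions not given in the sources used here. The deposited region lists give, for each summit, a linear ratio (fold enrichment over input), and −log10 p-values and q-values, with the gene, transcript and annotation class of each region. Calling was per library, so nothing was pooled. Library depth is unknown from the lists, so no interval or floor is given. A second deposited table for each sample was not used, since it holds the authors' own csaw comparison of the cell types (fold changes and p-values).

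Regions were taken by the symbol in the lists and, separately, by position on the MANE Select transcript of GENCODE release 44. The second route was needed because the lists name a transcript per region and their coordinates leave out gene ends of some members. Ratios of SHP-1 KO to WT used the strongest region of a gene or the region over its start, past 1.5-fold either way. End values are the strongest region from 500 bp before to 3000 bp after the end. Sequences shared by HSPA1A and HSPA1B are runs of 50-base words found in both. Promoter windows came from RefSeq (GRCh38.p14). Python 3.11.15, pandas 2.3.3 and NumPy 2.4.6 were used, and the overlap code was tested on simulated intervals. All members are named with their values. Of the 60 other chaperone genes, those named are the 3 highest and 3 lowest ratios per antibody and those with a region in 1 cell type only. Genes whose symbol is given to regions inside a member are named there. Members and lists were chosen with earlier results of these data known. Alternatives were a −log10 q-value of at least 5, regions of any symbol over the gene, a length-weighted mean, a fold of 2 and a reciprocal overlap of 50%. The ratio of start regions was added after seeing the data.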

Additional observations from a re-analysis of the deposited data

How the results depend on the processing

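No paired analysis was possible because there was 1 library for each antibody and cell type, which also left no replicate to leave out. Counting regions of any symbol from 1 kb upstream to the gene end gave 40 pSer2 regions in WT instead of 63. The median percentile of the members among genes by strongest region was 93.3 (RPB1 WT), 96.2 (RPB1 SHP-1 KO), 86.9 (pSer2 WT) and 90.9 (pSer2 SHP-1 KO), became 92.7, 96.0, 84.7 and 89.3 with only −log10 q-values from 5 upward, and 91.5, 95.4, 85.2 and 87.3 with regions of any symbol over the gene. With a reciprocal overlap of 50%, 22 RPB1 regions of WT, 22 of SHP-1 KO, 26 pSer2 regions of WT and 26 of SHP-1 KO were shared, instead of 42, 36, 46 and 39. For RPB1 the length-weighted mean gave a median ratio of 0.716 and 5 members lower, and a fold of 2 left 1 lower, instead of 2, with 32.2% and 10.3% of all genes lower. For pSer2 the median ratio of 1.00 was 0.950 with regions of any symbol, 1.18 with the length-weighted mean and 1.18 over the start. The pSer2 count of 1 member lower was 0 with regions of any symbol, the length-weighted mean or a fold of 2, and 2 over the start, and the count of 0 higher was 2 with the length-weighted mean and 1 over the start. The cause of these shifts was not tested. The other recomputed values stayed within 1.5 times the count or equal to the value reported. Depth could not be read from the lists, so a missing region does not show that RNA pol II was absent.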

Other observations

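Between HSPA1A and HSPA1B lay an intergenic RPB1 region, assigned to HSPA1B, that is not at the start of either gene. It was 25.3-fold in WT (chr6:31821345-31822709) and 15.3-fold in SHP-1 KO (chr6:31821379-31822377). The pSer2 list of WT held a region of 2.70-fold there, and that of SHP-1 KO held none.

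HSPD1 was the nearest assigned gene for many pSer2 regions far from it. Of its 24 pSer2 regions in WT, 12 lay more than 20 kb upstream of its start, between 33447 and 62012 bp away, and of its 15 in SHP-1 KO, 6 did, between 35679 and 62068 bp away. RPB1 had 0 such regions in either cell type. These regions raise the counts by symbol for HSPD1 and do not bear on the values over the gene given above.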
